A study of Mus musculus with 16 samples.

Results

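Wnt proteins are secreted ligands that bind Frizzled (Fzd) receptors together with the coreceptors Lrp5 and Lrp6. In the canonical branch this binding disables a destruction complex organised by Axin proteins, so that β-catenin (Ctnnb1) is spared from degradation and acts in the nucleus with the DNA-binding factors Lef1 and Tcf7l2. Dickkopf (Dkk) proteins act on the coreceptors, and secreted Frizzled-related proteins (Sfrp, Frzb) and Wif1 bind Wnts outside the cell. In the hippocampus the pathway is known for its part in development, in the growth of axons and dendrites and in the assembly of synapses.

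The genes described here were listed by name for their place in this pathway, 44 of the 55385 genes in the deposited tables. They comprise 18 Wnt ligands, 10 Frizzled receptors, the 2 coreceptors, the 2 Axins, 9 secreted inhibitors and the 3 nuclear components. Each of the 44 matched exactly 1 identifier. RNA was measured in primary hippocampal cultures from newborn C57Bl/6N mice, in 16 libraries that form 4 groups of 4. Cultures carried Control-shRNA or Dnmt3a1-shRNA, a short hairpin RNA against the long isoform of the DNA methyltransferase Dnmt3a, and were left at baseline or given 50 µM bicuculline for 4 h. Bicuculline blocks GABA-A receptors and thereby drives bursts of action potentials in the culture. In all 4 groups the hairpin was delivered by a recombinant adeno-associated virus with a U6 promoter, and a chicken β-actin promoter on the same virus drove GFP. The 4 replicates of a group came from independent neuronal preparations. The knockdown rests on 1 hairpin, and the values sum all transcripts of a gene, so the isoforms of Dnmt3a are not separated.

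The counts summed to between 28912697 and 29586355 per library, of which 30122 to 39813 fell on the 44 members. Dnmt3a served as the check of the labels. It had 311, 293, 321 and 324 CPM (counts relative to the library total, scaled by edgeR's TMM method) in replicates 1 to 4 of the Control-shRNA baseline group and 45.5, 39.4, 45.1 and 48.05 CPM in the Dnmt3a1-shRNA baseline group, with 338, 333, 325 and 311 and 45.1, 47.8, 44.5 and 43.8 CPM in the corresponding bicuculline groups. The log2 fold change after knockdown was −2.81 (SE 0.06, adjusted p = 3.79e-15) at baseline and −2.85 (SE 0.06, adjusted p = 3.16e-15) with bicuculline. Markers of neurons summed to 4872 to 6474 TPM (transcript abundance relative to the library total, scaled for transcript length) per library, those of astrocytes to 206 to 463 TPM and those of microglia to 2.42 to 8.32 TPM. Markers of the oligodendrocyte lineage summed to 81.2 to 188 TPM, with Sox10 alone of that list under 1 TPM in every library. Also under 1 TPM in every library were Cx3cr1 and P2ry12 of microglia, Cldn5, Cdh5 and Pecam1 of endothelium and Mki67 and Top2a of dividing cells, where the whole list of progenitors and proliferation summed to 34.8 to 58.4 TPM. The list of fibroblasts and vessels, which holds these endothelial genes, summed to 37.2 to 91.9 TPM. By replicate number that sum was 37.2 to 49.3 TPM in replicate 1 and 75.1 to 91.9 in replicate 3. Of its 8 tested markers, Col1a2 was called higher with bicuculline in both shRNAs and Pdgfrb in Control-shRNA cultures. Of 6 markers of GABAergic neurons, 3 were called higher with bicuculline in both shRNAs, and their summed level was 1057 to 1207 TPM at baseline and 1336 to 1500 TPM with bicuculline in Control-shRNA cultures, and 720 to 918 and 1032 to 1202 TPM in Dnmt3a1-shRNA cultures. Among markers of excitatory neurons, Slc17a6 was called higher and Neurod6 lower in both shRNAs. The part of these shifts in the results for Wnt genes was not tested. Since the RNA comes from whole cultures, fewer cells of a type and less RNA per cell cannot be told apart.

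Of the 44 members, 38 had enough counts to be tested, among 17222 genes in all. The other 6, Wnt3a, Wnt10a, Wnt16, Fzd10, Dkk1 and Sfrp5, lay under the filter on low counts. Wnt3a had at most 1 count in a library, Dkk1 at most 3 and Sfrp5 at most 5. Fzd10 had 2 to 10 counts and Wnt16 0 to 10. Wnt10a had 14, 10, 19 and 12 counts in the 4 Control-shRNA baseline libraries, 0, 4, 8 and 3 with bicuculline, 3, 2, 5 and 5 in the Dnmt3a1-shRNA baseline libraries and 1, 1, 3 and 3 with bicuculline. Every Control-shRNA baseline library therefore held more Wnt10a reads than every library of the other groups. When the filter was dropped, Wnt10a was called lower with bicuculline in Control-shRNA cultures (log2 fold change −1.69, Benjamini-Hochberg adjusted p = 0.0115, edgeR quasi-likelihood) and lower after knockdown at baseline (−1.76, adjusted p = 0.0216, same test). In that fit Wnt16 was called lower after knockdown with bicuculline (−2.34, adjusted p = 0.0107, same test), at 7 to 10 counts in Control-shRNA and 0 to 2 counts in Dnmt3a1-shRNA libraries. Sfrp5 also had an adjusted p under 0.05 there with bicuculline in Control-shRNA cultures (adjusted p = 0.0446, same test), at 0, 0, 1 and 0 counts at baseline and 5, 0, 4 and 2 counts with bicuculline. These values rest on few reads. The same fit lost the calls of Wnt1, Wnt6 and Sfrp4 with bicuculline in Control-shRNA cultures, of Wnt9b and Wnt11 after knockdown at baseline and of Fzd3 after knockdown with bicuculline, at adjusted p of 0.0511 to 0.0988 (same test).

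The levels of the members spanned several orders of magnitude on the TPM scale, which allows genes of different length to be compared. Ctnnb1 was the most abundant, at 362 ± 12.4 TPM in the Control-shRNA baseline group (SD, n = 4). Among the ligands Wnt7b stood first at 78.2 ± 6.08 TPM (SD, n = 4), ahead of Wnt7a at 11.3 ± 2.15, Wnt5a at 11.02 ± 0.734 and Wnt4 at 8.24 ± 1.26 TPM (SD, n = 4). Wnt7b alone made up 62.8% to 64.9% of the summed TPM of the 18 ligands in these libraries. Wnt7a, known to promote presynaptic assembly, had a range that overlapped those of both Wnt5a and Wnt4, so its place among them was not set by the replicates. Wnt9a at 3.62 ± 0.622 TPM, Wnt2 at 2.28 ± 0.307 TPM and Wnt2b at 2.08 ± 0.174 TPM followed (SD, n = 4), and Wnt11 was next at 1.18 ± 0.582 TPM with all other ligands lower. Fzd3 was the leading receptor at 21.7 ± 2.63 TPM (SD, n = 4), with 32.0% to 42.5% of the Frizzled TPM, followed by Fzd1 at 10.1 ± 0.99969, Fzd7 at 8.68 ± 0.861 and Fzd9 at 7.85 ± 1.56 TPM, each with a range that overlapped the next. Lrp6 exceeded Lrp5, at 12.9 ± 1.03 against 2.86 ± 0.419 TPM, and Axin1 exceeded Axin2, at 15.7 ± 0.807 against 8.93 ± 1.01 TPM (SD, n = 4). Dkk3, a divergent Dickkopf protein, was the leading secreted inhibitor at 18.7 ± 5.79 TPM, followed by Frzb at 9.39 ± 1.29 and Sfrp1 at 9.29 ± 0.334 TPM (SD, n = 4). The plot of TPM by library shows all 38 tested members by role.

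**Figure D1:**
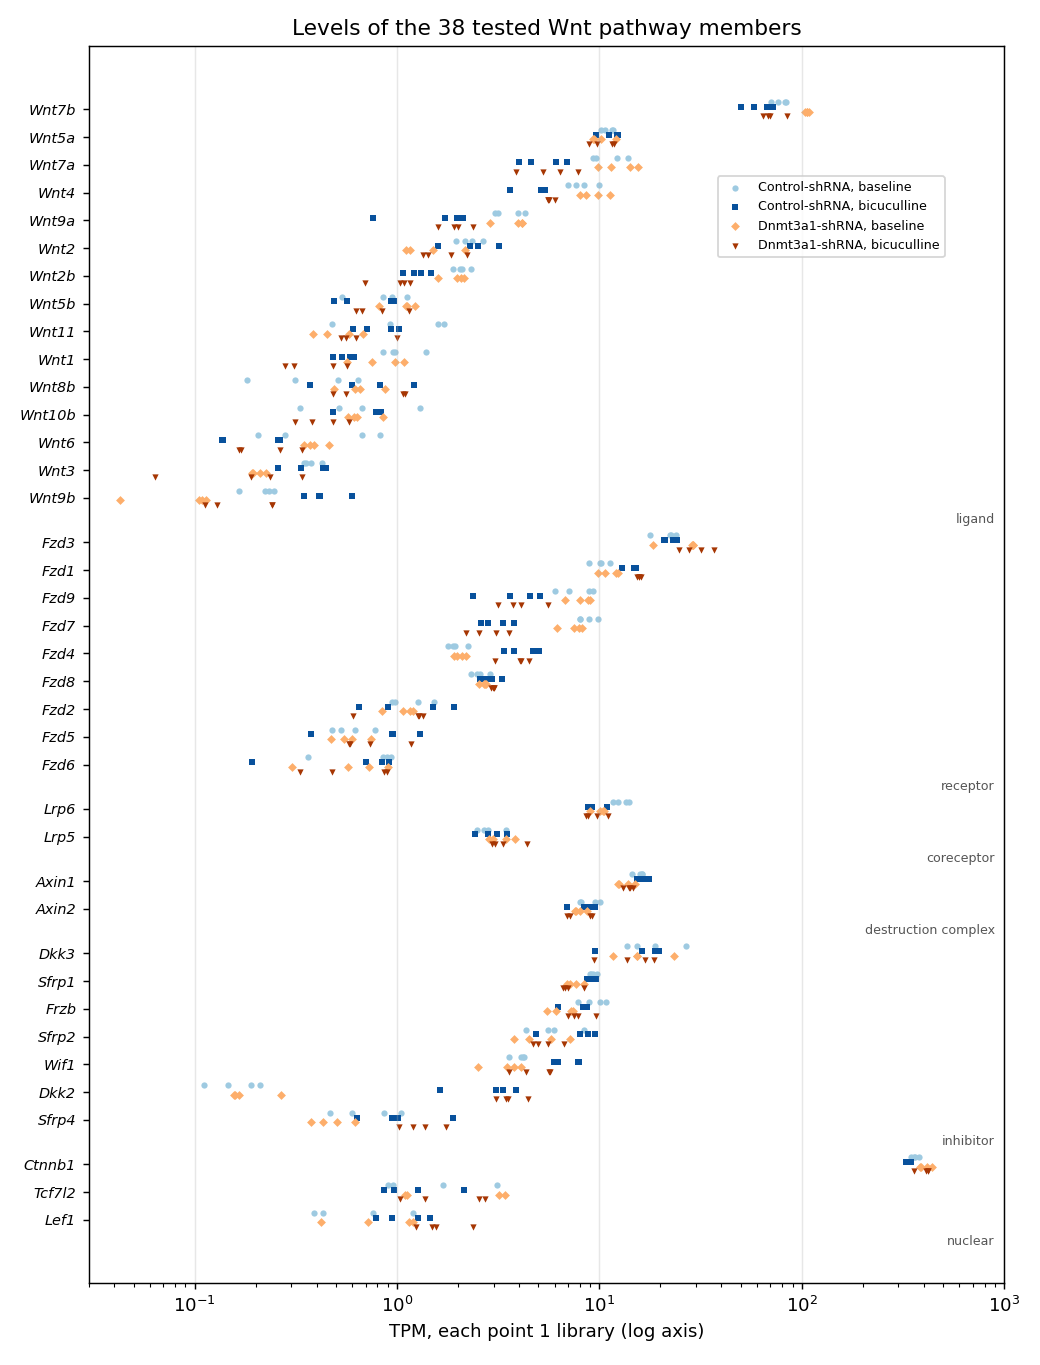
Level of each tested member in TPM on a log axis, 1 point per library, coloured by group (n = 4 libraries in each) and sorted within its role by the mean. Ctnnb1, Wnt7b and Fzd3 lead their roles, and Dkk2 shows the widest separation between the baseline libraries and those with bicuculline.

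Whether neuronal activity changed the expression of Wnt genes was asked first in Control-shRNA cultures. With bicuculline, RNA of 4 of 7 secreted inhibitors rose, led by Dkk2, the receptors Fzd4 and Fzd1 rose while Fzd7 and Fzd9 fell, 6 of the 8 ligands that changed fell, and Lef1 rose. A gene was called at a Benjamini-Hochberg adjusted p under 0.05 by edgeR's quasi-likelihood test and an absolute log2 fold change over 0.5. By this rule 17 of the 38 members were called (44.7%), where 21.8% of all 17222 tested genes were. Of these, 9 were higher (10.7% of all genes were called higher) and 8 lower (11.1% of all genes). The 2 groups did not overlap in 18 of the 38 members, and in 39.7% of all genes. The median log2 fold change of the members was 0.14, and that of all genes 0.01. In Dnmt3a1-shRNA cultures 14 of the 38 members were called (36.8%, against 25.7% of all genes), 7 higher (12.5% of all genes) and 7 lower (13.2% of all genes). There the groups did not overlap in 20 members (40.4% of all genes), and the medians were 0.23 for the members and −0.01 for all genes. All 14 were also called in Control-shRNA cultures and in the same direction. The 2 comparisons use separate libraries but come from 1 fit, which shares its estimate of the spread. Same-numbered baseline libraries of the 2 shRNAs were also taken as paired, so the comparisons are not independent. The plot of bicuculline effects gives all 38 members in both shRNAs.

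**Figure D2:**
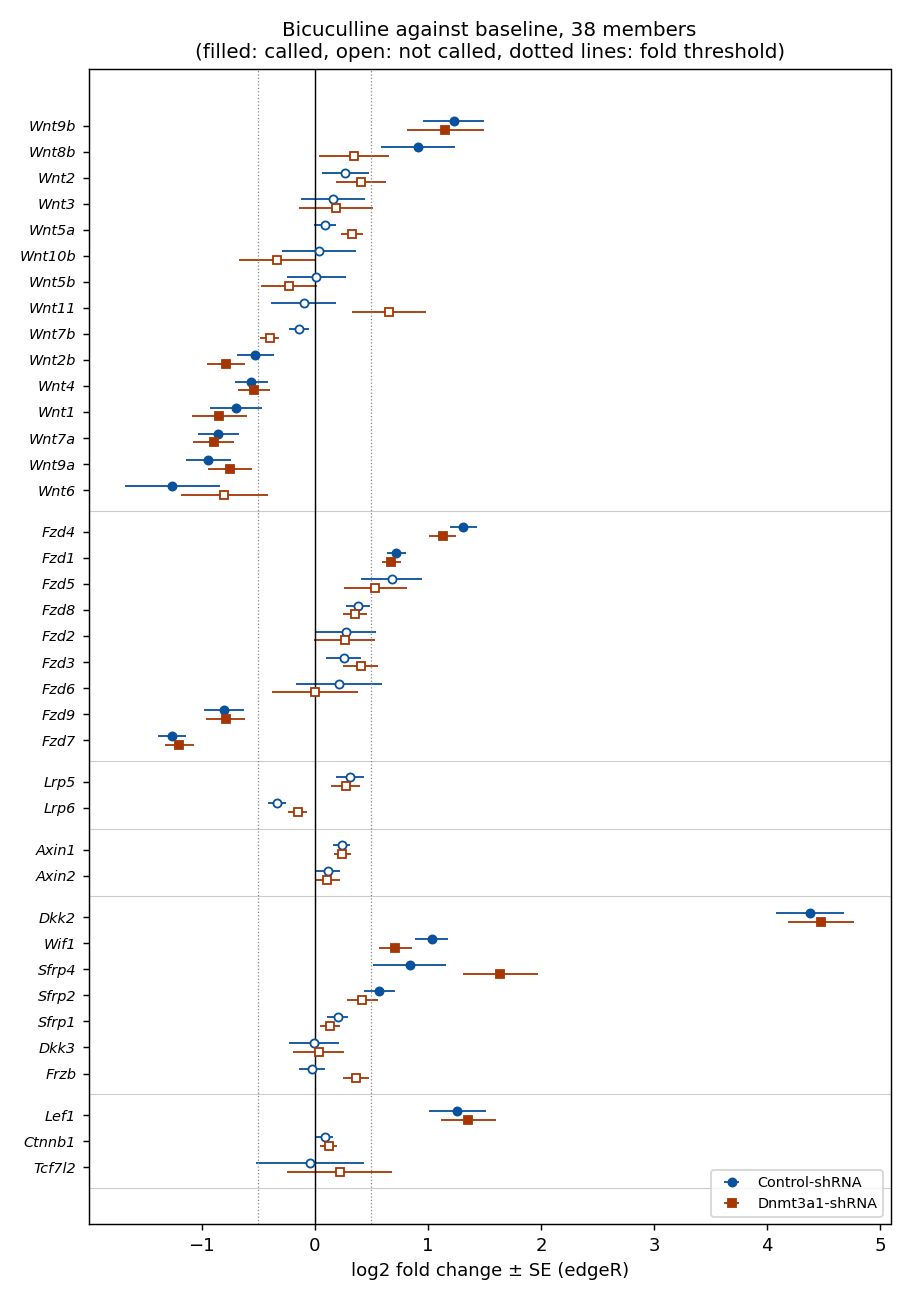
Log2 fold change of each tested member with bicuculline against baseline, with its standard error from edgeR, in Control-shRNA (circles) and Dnmt3a1-shRNA cultures (squares). Filled symbols were called and dotted lines mark the fold threshold of 0.5. Dkk2 lies apart at 4.38 and 4.48, and the symbols of the 2 shRNAs lie on the same side of 0 for all 14 members called in both.

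For the members that carry this result, the bases just before the transcription start are given first. They are RefSeq promoter sequences of GRCm38.p6, all on the plus strand and 5′ to 3′, and each ends before the first annotated base of the gene. Shown are Dkk2, Fzd4, Fzd7 and Lef1, the 4 called members with the largest absolute change in Control-shRNA cultures among those that averaged 1 CPM or more and whose groups were separate. Capitals mark a TATA box (TATAAA) or a CCAAT box (CCAAT or its complement ATTGG), 2 motifs added after the sequences had been seen.
Dkk2 (chr3:132085042-132085291): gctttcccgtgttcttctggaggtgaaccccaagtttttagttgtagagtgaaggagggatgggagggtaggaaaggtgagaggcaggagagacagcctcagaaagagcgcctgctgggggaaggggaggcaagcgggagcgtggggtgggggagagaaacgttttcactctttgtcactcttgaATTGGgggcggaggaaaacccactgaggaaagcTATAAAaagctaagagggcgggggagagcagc
Fzd4 (chr7:89404116-89404354): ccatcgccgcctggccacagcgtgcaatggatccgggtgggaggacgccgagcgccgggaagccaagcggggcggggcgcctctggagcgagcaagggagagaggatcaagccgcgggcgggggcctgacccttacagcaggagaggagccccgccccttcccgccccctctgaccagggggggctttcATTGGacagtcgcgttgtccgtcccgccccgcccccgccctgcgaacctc
Fzd7 (chr1:59481897-59482146): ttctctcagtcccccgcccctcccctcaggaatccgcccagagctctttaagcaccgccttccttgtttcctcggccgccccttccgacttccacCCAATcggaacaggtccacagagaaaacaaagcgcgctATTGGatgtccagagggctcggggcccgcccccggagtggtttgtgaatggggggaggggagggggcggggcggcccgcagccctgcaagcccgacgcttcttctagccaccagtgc
Lef1 (chr3:131110047-131110296): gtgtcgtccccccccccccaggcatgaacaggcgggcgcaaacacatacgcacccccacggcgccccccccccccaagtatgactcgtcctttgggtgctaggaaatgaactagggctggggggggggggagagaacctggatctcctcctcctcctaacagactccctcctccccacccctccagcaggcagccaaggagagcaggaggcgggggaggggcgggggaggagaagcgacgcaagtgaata
The 4 windows were 55.6% (Dkk2), 72.8% (Fzd4), 65.2% (Fzd7) and 66.4% (Lef1) G or C. Searched on both strands, none held the TCF/LEF letters CTTTGAT or CTTTGAA, the AP-1 letters TGANTCA or the CRE letters TGACGTC. Over the 250 bases before each of 32536 distinct RefSeq promoters, 7.50% held the TCF/LEF letters, 6.73% the AP-1 letters and 2.80% the CRE letters. Among the 31 members with a promoter entry, 3 held the TCF/LEF letters (Dkk1, Wnt11 and Wnt5b), 1 the AP-1 letters (Wnt5b) and 0 the CRE letters. A TATA box was found before Dkk2 and, of the 4 RefSeq starts of Lef1, before another than the one shown. CCAAT boxes were found before Dkk2, Fzd4 and Fzd7. Among the 31 members with an entry, 8 held a TATA box and 11 a CCAAT box, against 12.3% and 33.8% of all promoters. Lef1 counts here by any of its 4 starts, whereas these percentages are over single promoters. No entry was given for Wnt5a, Wnt7b, Wnt10a, Fzd2, Fzd3, Fzd6, Fzd8, Lrp5, Lrp6, Axin1, Dkk3, Sfrp1 and Sfrp4.

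Among the secreted inhibitors 4 of 7 tested members were called higher in Control-shRNA cultures and 3 in Dnmt3a1-shRNA cultures, beside 10.7% and 12.5% of all genes, and 0 were called lower. Dkk2 (ENSMUSG00000028031.6, chromosome 3, 132085292 to 132180304, plus strand), which binds the Lrp5 and Lrp6 coreceptors, moved most. It had 0.263, 0.185, 0.335 and 0.324 CPM in the Control-shRNA baseline libraries and 8.11, 3.16, 5.697 and 6.45 CPM with bicuculline. In Dnmt3a1-shRNA cultures it had 0.316, 0.294, 0.445 and 0.303 CPM at baseline and 10.02, 7.55, 5.92 and 7.24 CPM with bicuculline. No stimulated library came near the baseline levels, and replicate 2 of the Control-shRNA bicuculline group held less than the other 3. The log2 fold change was 4.38 (SE 0.30, adjusted p = 2.9e-09) in Control-shRNA and 4.48 (SE 0.29, adjusted p = 1.05e-09) in Dnmt3a1-shRNA cultures. At baseline this rested on 6 to 14 counts per library.

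Wif1 (ENSMUSG00000020218.11, chromosome 10, 121033960 to 121100650, plus strand), a secreted protein that binds Wnts directly, rose from 3.65, 3.27, 3.74 and 4.15 CPM to 7.33, 7.07, 8.17 and 7.79 CPM in the 4 Control-shRNA replicates. In Dnmt3a1-shRNA cultures it rose from 2.99, 3.89, 3.68 and 3.805 to 7.09, 4.44, 4.99 and 7.05 CPM. The groups did not overlap in either shRNA, and in the stimulated Dnmt3a1-shRNA group replicates 2 and 3 lay below replicates 1 and 4. Its log2 fold changes were 1.03 (SE 0.14, adjusted p = 1.44e-05) and 0.71 (SE 0.15, adjusted p = 0.00061), and the Dnmt3a1-shRNA call ended on log2(TPM + 1) and log2(TPM + 0.1) (0.37 and 0.45). Sfrp4, a secreted Frizzled-related protein, went from 0.757, 0.556, 0.578 and 0.357 to 0.856, 0.71, 1.65 and 0.807 CPM in Control-shRNA cultures, where the groups overlapped and replicate 3 of the stimulated group stood apart from the other 3. It went from 0.316, 0.458, 0.603 and 0.269 to 1.74, 1.48, 1.07 and 0.923 CPM in Dnmt3a1-shRNA cultures, where all stimulated libraries were higher. The log2 fold changes were 0.84 (SE 0.32, adjusted p = 0.0453) and 1.64 (SE 0.33, adjusted p = 0.000504). The Control-shRNA call of Sfrp4 was lost in 6 of the 16 fits on 15 libraries, those without replicate 2, 3 or 4 of the Control-shRNA baseline, replicate 3 of the Control-shRNA bicuculline, or replicate 2 of either Dnmt3a1-shRNA group. Without that replicate 3 its log2 fold change was 0.49, and DESeq2 did not call it with all libraries (adjusted p = 0.0553, with 0.0167 to 0.242 over all alternatives).

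Sfrp2 went from 3.72, 4.11, 4.14 and 4.09 to 4.21, 6.11, 6.796 and 6.74 CPM in Control-shRNA cultures, a rise in all 4 stimulated libraries with replicate 1 just above the baseline range, and its log2 fold change was 0.57 (SE 0.14, adjusted p = 0.00282). In Dnmt3a1-shRNA cultures the value was 0.42 (SE 0.14, adjusted p = 0.0197), under the fold threshold and not a call. Dkk3 had log2 fold changes of −0.01 and 0.04, and neither passed the test. Frzb, also a Frizzled-related inhibitor, had −0.03 (SE 0.12, adjusted p = 0.884) in Control-shRNA cultures and 0.36 (SE 0.12, adjusted p = 0.0165) in Dnmt3a1-shRNA cultures, the latter past the adjusted p and under the fold threshold. The call of Sfrp2 in Control-shRNA cultures ended under scaling by library size alone (0.42) and on log2(TPM + 1) and log2(TPM + 0.1) (0.31 and 0.35). Sfrp1, the remaining tested inhibitor, passed in neither shRNA.

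**Figure D3:**
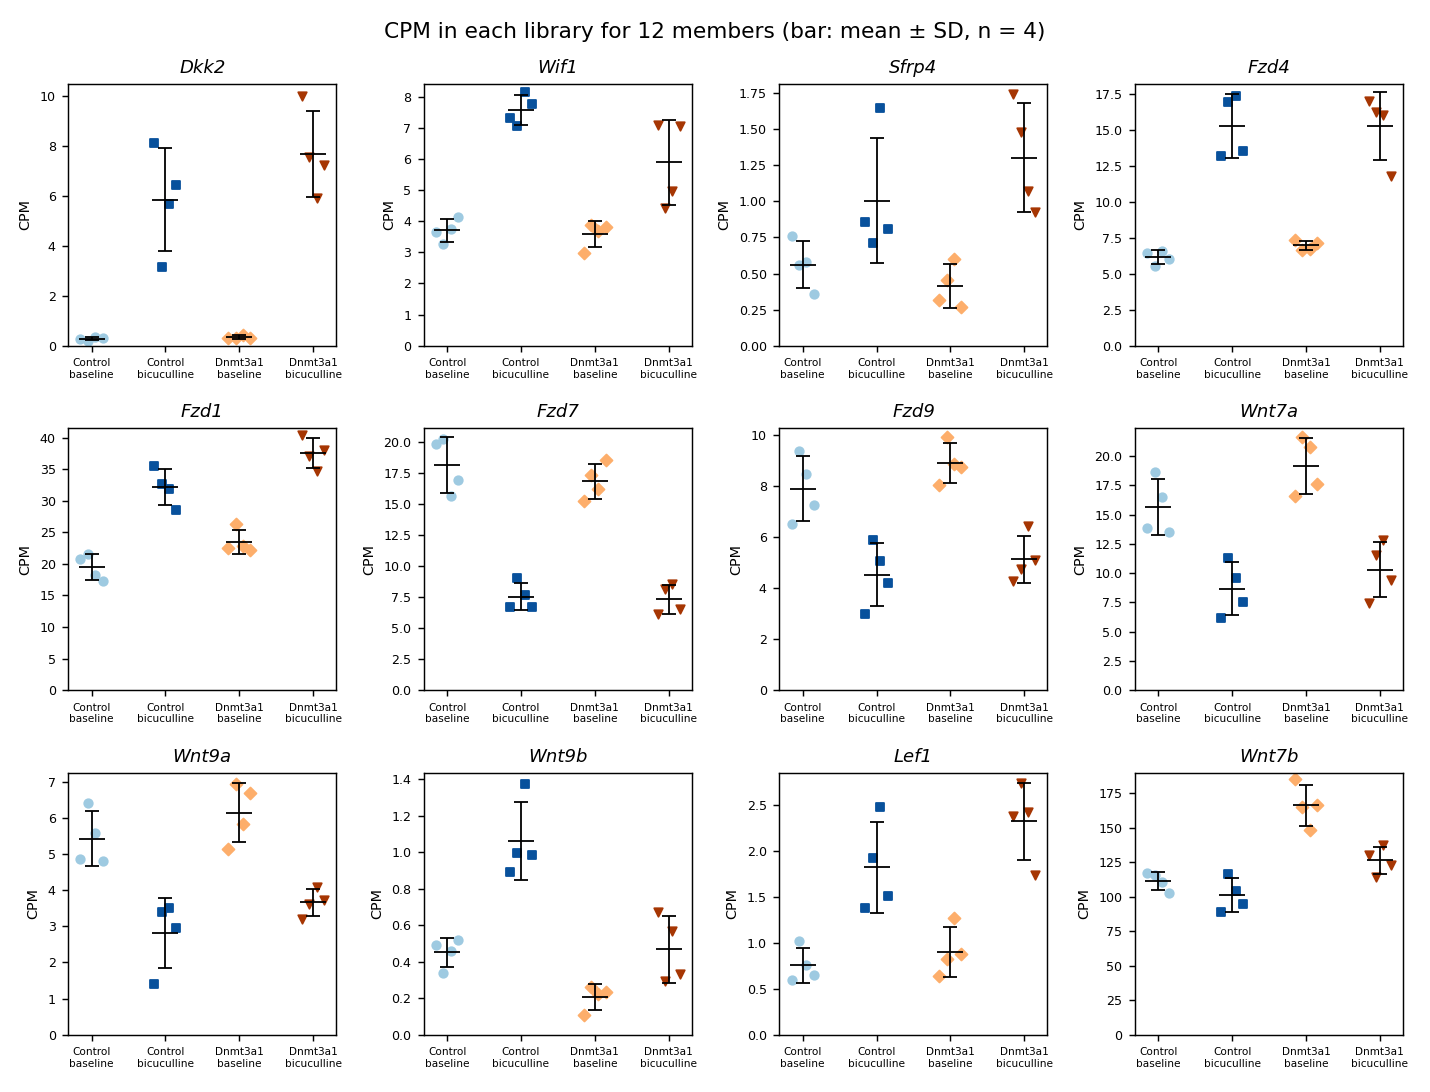
CPM of 12 members in each library, with the mean and SD of each group (n = 4). Dkk2, Wif1, Fzd4, Fzd1 and Lef1 are higher in every library with bicuculline than in any baseline library of the same shRNA, Fzd7, Fzd9, Wnt7a and Wnt9a are lower, Wnt9b is lower after knockdown in both conditions, and Wnt7b at baseline is higher after knockdown.

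Of the 9 tested Frizzled receptors, 4 were called in both shRNAs, 2 higher and 2 lower, beside 21.8% and 25.7% of all genes called. Fzd4 (ENSMUSG00000049791.4, chromosome 7, 89404355 to 89413134, plus strand), which also serves as the receptor of the non-Wnt ligand norrin, had 6.45, 5.53, 6.602 and 5.999 CPM at baseline and 13.2, 16.9, 17.4 and 13.5 CPM with bicuculline in Control-shRNA cultures. In Dnmt3a1-shRNA cultures it had 7.34, 6.67, 6.73 and 7.104 CPM at baseline and 16.98, 16.2, 16.003 and 11.8 CPM with bicuculline. All stimulated libraries were higher than all baseline libraries. The log2 fold changes were 1.31 (SE 0.12, adjusted p = 9.44e-08) and 1.13 (SE 0.12, adjusted p = 4.14e-07). Fzd7 (ENSMUSG00000041075.8, chromosome 1, 59482424 to 59486955, plus strand), a receptor also known from stem cells, moved in the opposite direction. It had 19.8, 20.3, 15.6 and 16.96 CPM at baseline and 6.74, 9.05, 7.69 and 6.6999 CPM with bicuculline in Control-shRNA cultures, and 15.3, 17.3, 16.2 and 18.6 CPM, then 6.14, 8.15, 8.52 and 6.54 CPM, in Dnmt3a1-shRNA cultures. No stimulated library reached the lowest baseline library. Its log2 fold changes were −1.27 (SE 0.12, adjusted p = 2.27e-07) and −1.20 (SE 0.13, adjusted p = 3.78e-07).

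The ratio of Fzd4 to Fzd7 counts, which does not depend on the scaling between libraries, was 0.273 to 0.423 in the 4 Control-shRNA baseline libraries and 1.87 to 2.26 with bicuculline. It was 0.383 to 0.482 and 1.80 to 2.77 in Dnmt3a1-shRNA cultures. Fzd7 reads thus outnumbered Fzd4 reads in all 8 baseline libraries and Fzd4 reads outnumbered Fzd7 reads in all 8 stimulated ones. On the TPM scale the share of Fzd7 in the summed Frizzled RNA was 13.5% to 17.6% at baseline and 5.02% to 6.78% with bicuculline in Control-shRNA cultures, and the share of Fzd4 was 3.19% to 3.81% and 6.53% to 8.76%. The summed Frizzled TPM itself was 53.5 to 58.9 at baseline and 50.2 to 57.6 with bicuculline, overlapping ranges.

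Fzd1, which was expressed at a higher level than Fzd4, rose from 20.8, 21.6, 18.2 and 17.3 to 35.5, 32.6, 31.9 and 28.5 CPM in Control-shRNA and from 22.5, 26.3, 22.9 and 22.3 to 40.3, 37.1, 34.7 and 38.1 CPM in Dnmt3a1-shRNA cultures. The groups were separate in both, with log2 fold changes of 0.72 (SE 0.09, adjusted p = 2.5e-06) and 0.68 (SE 0.09, adjusted p = 3.67e-06). Fzd9, a receptor expressed in the developing hippocampus, fell from 6.52, 9.35, 8.46 and 7.23 to 2.98, 5.89, 5.05 and 4.17 CPM in Control-shRNA and from 8.01, 9.91, 8.86 and 8.72 to 4.28, 4.74, 6.42 and 5.096 CPM in Dnmt3a1-shRNA cultures. Again no library overlapped, and the log2 fold changes were −0.80 (SE 0.17, adjusted p = 0.00109) and −0.79 (SE 0.17, adjusted p = 0.00098). Fzd5 had 1.65, 1.698, 2.37 and 2.04 CPM at baseline and 1.53, 3.51, 4.43 and 2.95 CPM with bicuculline in Control-shRNA cultures. Replicate 1 was the lowest of all 8 libraries and the other 3 stimulated libraries lay above the baseline ones, and the log2 fold change of 0.68 (SE 0.27, adjusted p = 0.0558) was not a call, while DESeq2 called it (0.69, adjusted p = 0.0454). With the replicate number as a block Fzd5 was called (0.65, adjusted p = 0.011, same edgeR test, with 0.00487 to 0.288 over all alternatives), as it was without replicate 3 of the Control-shRNA baseline, replicate 1 of the Control-shRNA bicuculline or replicate 3 or 4 of the Dnmt3a1-shRNA bicuculline group (highest value 0.90). Fzd8 had log2 fold changes of 0.38 (SE 0.11, adjusted p = 0.00784) and 0.35 (SE 0.11, adjusted p = 0.0103), past the adjusted p and under the fold threshold in both shRNAs. Fzd3, the most abundant Frizzled, which is known for axon guidance, had 0.25 (adjusted p = 0.214) and 0.41 (adjusted p = 0.0412), and the latter became a call without replicate 1 of the Dnmt3a1-shRNA baseline (0.50). Fzd2 and Fzd6 passed in neither shRNA.

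Of the 15 tested ligands, 8 were called in Control-shRNA cultures, 2 higher and 6 lower, and 6 in Dnmt3a1-shRNA cultures, 1 higher and 5 lower, beside the same 21.8% and 25.7% of all genes. Wnt7a (ENSMUSG00000030093.7, chromosome 6, 91363981 to 91411363, minus strand), a ligand known to promote presynaptic assembly, fell from 13.9, 18.7, 16.5 and 13.5 to 6.18, 11.3, 9.58 and 7.54 CPM in Control-shRNA cultures. In Dnmt3a1-shRNA cultures it fell from 16.6, 21.6, 20.8 and 17.6 to 7.44, 11.5, 12.8 and 9.38 CPM. The groups did not overlap in either, and replicate 1 of each stimulated group was the lowest. The log2 fold changes were −0.85 (SE 0.18, adjusted p = 0.00113) and −0.89 (SE 0.18, adjusted p = 0.00057). Its paralog Wnt7b, the most abundant ligand, which is known to promote dendrite growth, had 117, 116, 111 and 102 CPM at baseline and 89.1, 117, 104 and 94.7 CPM with bicuculline in Control-shRNA cultures, overlapping ranges with a log2 fold change of −0.14 (SE 0.09, adjusted p = 0.212). In Dnmt3a1-shRNA cultures it had 185, 165, 149 and 166 CPM at baseline and 130.3, 114, 137 and 123 CPM with bicuculline, which did not overlap, and −0.40 (SE 0.09, adjusted p = 0.000844), under the fold threshold. That value passed the threshold under scaling by library size alone (−0.54).

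Wnt9a fell from 4.87, 6.42, 5.598 and 4.7995 to 1.41, 3.41, 3.501 and 2.95 CPM in Control-shRNA cultures and from 5.13, 6.93, 5.84 and 6.7003 to 3.21, 3.63, 4.099 and 3.73 CPM in Dnmt3a1-shRNA cultures. No libraries overlapped, replicate 1 of the stimulated Control-shRNA group was far under the other 3, and the log2 fold changes were −0.94 (SE 0.20, adjusted p = 0.000892) and −0.75 (SE 0.19, adjusted p = 0.00411). Wnt4, a ligand with canonical and noncanonical actions, went from 15.7, 18.9, 15.2 and 13.6 to 8.67, 11.3, 11.4 and 11.6 CPM in Control-shRNA cultures and from 25.7, 18.4, 15.1 and 20.5 to 15.5, 13.5, 12.3 and 13.4 CPM in Dnmt3a1-shRNA cultures. It was lower with bicuculline without overlap in the former, while in the latter replicate 1 of the stimulated group lay above replicate 3 of the baseline group. The log2 fold changes were −0.56 (SE 0.14, adjusted p = 0.00426) and −0.54 (SE 0.14, adjusted p = 0.00427), both close to the fold threshold. The Control-shRNA call was lost without replicate 2 of its baseline or replicate 1 of its bicuculline group (smallest decrease −0.46), and the Dnmt3a1-shRNA call without replicate 1 of its baseline or replicate 3 of its bicuculline group (smallest decrease −0.40).

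Wnt2b and Wnt1 were lower with bicuculline in both shRNAs as well. Wnt2b had 3.03, 3.12, 3.26 and 3.11 CPM at baseline and 2.01, 2.45, 1.99 and 2.25 CPM with bicuculline in Control-shRNA cultures, and 3.51, 3.47, 2.35 and 3.47 CPM, then 2.18, 1.96, 1.996 and 1.29 CPM, in Dnmt3a1-shRNA cultures, and its log2 fold changes were −0.52 (SE 0.16, adjusted p = 0.0144) and −0.78 (SE 0.17, adjusted p = 0.000741). The stimulated libraries were the lower ones throughout, and the Control-shRNA call was lost without replicate 1 or replicate 3 of its bicuculline group, with −0.48 as the smallest decrease. Wnt1, the founding member of the family, had 0.954, 1.45, 0.943 and 1.04 CPM at baseline and 0.633, 0.71, 0.618 and 0.737 CPM with bicuculline in Control-shRNA cultures, and 0.703, 0.883, 1.11 and 1.11 CPM, then 0.435, 0.37, 0.677 and 0.628 CPM, in Dnmt3a1-shRNA cultures. It had 10 to 47 counts per library, its groups did not overlap, and its log2 fold changes were −0.70 (SE 0.23, adjusted p = 0.0198) and −0.84 (SE 0.24, adjusted p = 0.0077). The Control-shRNA call of Wnt1 was lost without replicate 2 of the baseline group or replicate 3 of the bicuculline group, with −0.53 as the smallest decrease. Wnt6 was called in Control-shRNA cultures on very few reads, 6, 15, 6 and 14 counts at baseline and 3, 4, 4 and 4 counts with bicuculline, with a log2 fold change of −1.26 (SE 0.42, adjusted p = 0.0215). The call was lost without replicate 2 or replicate 4 of the baseline group (smallest decrease −1.03), and in Dnmt3a1-shRNA cultures the value was −0.80 (SE 0.39, adjusted p = 0.103), not a call.

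The ligands that rose were also low. Wnt9b (ENSMUSG00000018486.2, chromosome 11, 103727364 to 103749821, minus strand), known from kidney development, had 0.494, 0.34, 0.456 and 0.519 CPM at baseline and 0.893, 0.994, 1.37 and 0.982 CPM with bicuculline in Control-shRNA cultures. In Dnmt3a1-shRNA cultures it had 0.105, 0.262, 0.222 and 0.236 CPM at baseline and 0.673, 0.296, 0.57 and 0.332 CPM with bicuculline. The stimulated libraries were the higher ones in both shRNAs, and the range of the stimulated Dnmt3a1-shRNA libraries enclosed that of the Control-shRNA baseline. The log2 fold changes were 1.23 (SE 0.27, adjusted p = 0.00132) and 1.15 (SE 0.34, adjusted p = 0.00958). On log2(TPM + 1), which compresses low genes, they were 0.24 and 0.11 and neither was a call, and on log2(TPM + 0.1) the Dnmt3a1-shRNA value was 0.53 and not a call. Wnt8b, a ligand of the hippocampal primordium, had 0.296, 0.772, 0.882 and 0.486 CPM at baseline and 0.707, 1.49, 1.37 and 1.05 CPM with bicuculline in Control-shRNA cultures, where replicate 1 of the stimulated group lay within the baseline range. Its log2 fold change of 0.91 (SE 0.32, adjusted p = 0.0306) lost its call without replicate 1 or 4 of the baseline group or replicate 2 or 3 of the bicuculline group (lowest value 0.69), and in Dnmt3a1-shRNA cultures it was 0.35 (SE 0.31, adjusted p = 0.386). Wnt5a, the main noncanonical ligand here, had 0.09 (SE 0.10, adjusted p = 0.473) in Control-shRNA and 0.33 (SE 0.10, adjusted p = 0.00894) in Dnmt3a1-shRNA cultures, the latter past the adjusted p and under the fold threshold. Wnt2, Wnt3, Wnt5b, Wnt10b and Wnt11 were called in neither shRNA.

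Some ligand genes lie side by side. In GENCODE M21 on GRCm38, 4 pairs of members are separated by 6193 to 24328 bases. Wnt9b and Wnt3, 24328 bases apart on chromosome 11, had log2 fold changes with bicuculline of 1.23 and 0.16 in Control-shRNA cultures, and Wnt9b of the pair was called. Wnt1 and Wnt10b, 11706 bases apart on chromosome 15, had −0.70 and 0.04, and Wnt1 of the pair was called. Wnt6 and Wnt10a, 6193 bases apart on chromosome 1, both had few reads and fewer with bicuculline than at baseline in Control-shRNA cultures. At baseline after knockdown Wnt6 kept 7 to 14 counts, where Wnt10a had 2 to 5. Wnt9a and Wnt3a are 16175 bases apart on chromosome 11, and Wnt3a had next to no reads. The differences within pairs were not tested.

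Neither coreceptor and neither Axin was called. The coreceptors had log2 fold changes with bicuculline in Control-shRNA cultures of 0.31 (SE 0.13, adjusted p = 0.0584) for Lrp5 and −0.33 (SE 0.08, adjusted p = 0.00307) for Lrp6, neither over the fold threshold, although the 4 stimulated libraries of Lrp6 (30.9, 33.2, 29.8 and 31.01 CPM) all lay under the 4 baseline libraries (39.9, 36.4, 38.8 and 42.1 CPM). In Dnmt3a1-shRNA cultures the groups of Lrp6 overlapped, with −0.15 (SE 0.08, adjusted p = 0.149). Axin1 had 0.24 (SE 0.07, adjusted p = 0.0155) and 0.25 (SE 0.07, adjusted p = 0.0116) in the 2 shRNAs. Axin2, itself a widely used target gene of β-catenin, had 17.3, 13.3, 15.1 and 14.8 CPM at baseline and 14.1, 18.6, 16.6 and 16.3 CPM with bicuculline in Control-shRNA cultures. The 2 groups overlapped, and the log2 fold changes were 0.12 (SE 0.11, adjusted p = 0.419) and 0.11 (SE 0.11, adjusted p = 0.432), values whose sign turned under scaling by library size alone (−0.04 in both shRNAs). Ctnnb1 had 0.09 (SE 0.08, adjusted p = 0.381) and 0.13 (SE 0.08, adjusted p = 0.191), which also turned under that scaling (−0.07 and −0.02).

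Lef1 (ENSMUSG00000027985.14, chromosome 3, 131110471 to 131224356, plus strand), a nuclear partner of β-catenin, was called in both shRNAs. It had 0.592, 1.02, 0.761 and 0.649 CPM at baseline and 1.38, 1.92, 2.47 and 1.51 CPM with bicuculline in Control-shRNA cultures, and 0.633, 0.817, 1.27 and 0.875 CPM, then 2.38, 2.74, 2.42 and 1.74 CPM, in Dnmt3a1-shRNA cultures. Every stimulated library was higher than every baseline library of its shRNA, and the log2 fold changes were 1.26 (SE 0.25, adjusted p = 0.000487) and 1.36 (SE 0.24, adjusted p = 0.000154). In TPM, which weighs transcripts by their length, Lef1 had 0.389, 1.198, 0.762 and 0.432 at baseline and 0.791, 1.27, 1.45 and 0.95 with bicuculline in Control-shRNA cultures. On this scale the groups overlapped and the call was lost (limma on log2(TPM + 0.1), 0.69, adjusted p = 0.118, with 2.46e-05 to 0.14 over all alternatives). The values do not separate the transcripts of Lef1, so their part in this difference was not tested. Tcf7l2, the other DNA-binding factor, had −0.04 (SE 0.48, adjusted p = 0.955) in Control-shRNA cultures.

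Other genes of the pathway, from a list of 54 of which 49 were tested, were called in 12 cases in each shRNA (24.5%, near the background given above), 6 higher and 6 lower in Control-shRNA and 4 higher and 8 lower in Dnmt3a1-shRNA cultures. The medians of the list were −0.02 in both. Lgr5, a receptor of R-spondins, which enhance Wnt signals, had 1.35 and 1.81, and Rnf43, a ubiquitin ligase that removes Frizzleds, had 1.13 and 1.37. Tle4, a corepressor of Lef1 and its relatives, had 0.60 and 0.90, and the kinase Csnk1a1 of the destruction complex had 0.55 and 0.63. Wls, which carries Wnts to the surface, was called higher in Control-shRNA cultures (0.57). Among those called lower were the planar polarity genes Vangl1 (−0.76 and −0.57) and Vangl2 (−0.58 and −0.75), the β-catenin cofactor Pygo1 (−0.77 and −0.72) and Lgr6 (−0.76 and −1.02). Nkd2, an inhibitor of Dishevelled, was called lower in Control-shRNA cultures (−0.75), and Rspo3, an R-spondin, in Dnmt3a1-shRNA cultures (−0.94). Of the cytoplasmic part of the list, to which Csnk1a1 belongs, Apc2 was also called lower in both shRNAs. Amer1 of that part was called lower in Dnmt3a1-shRNA cultures alone. Of 12 listed target genes of β-catenin, 10 were tested and 4 were called in both shRNAs, all higher. They were Lef1, Lgr5, Rnf43 and Myc (1.10 and 0.80), beside 10.7% and 12.5% of all genes called higher in the 2 shRNAs. The other 6, Axin2, Nkd1, Tcf7, Notum, Znrf3 and Ccnd1, were called in neither.

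Whether loss of Dnmt3a altered the Wnt genes was asked by comparing Dnmt3a1-shRNA with Control-shRNA, at baseline and with bicuculline. Wnt7b was higher and Wnt9b and Wnt11 were lower at baseline, and with bicuculline Fzd3 was higher and Wnt9b lower. Markers called after knockdown were S100b of astrocytes, 1 of 8 on its list (0.82 at baseline and 0.84 with bicuculline), and Csf1r of microglia, 1 of 3 tested (−0.66 and −0.75). At baseline Tubb3, 1 of 6 neuronal markers (0.51), and Pdgfrb (0.75) were also called higher, as was Lum with bicuculline (0.67), each 1 of 8 tested markers of fibroblasts and vessels. Of the 6 GABAergic and 6 excitatory markers 0 were called. Yet the GABAergic sums given above were lower after knockdown without overlap in both conditions. The excitatory sum was 1625 to 1722 TPM in Control-shRNA and 1395 to 1593 in Dnmt3a1-shRNA cultures at baseline. With bicuculline its ranges overlapped (1237 to 1440 and 1075 to 1385 TPM). By edgeR the median log2 fold change of the excitatory list was 0.06 at baseline and 0.29 with bicuculline, the opposite direction to its sums. That of the GABAergic list was −0.10 and −0.13. TPM values were lower after knockdown in general, with a median over all genes of −0.08 and −0.07 on log2(TPM + 1). The part of these shifts in the values of the members was not tested. At baseline 3 of the 38 members were called (7.89%, against 5.77% of all genes), 1 higher (1.74% of all genes) and 2 lower (4.02% of all genes). With bicuculline 2 were called (5.26%, against 5.84% of all genes), 1 higher (1.97% of all genes) and 1 lower (3.87% of all genes). These shares lie near the background. The groups did not overlap in 6 members at baseline (19.9% of all genes) and in 4 with bicuculline (20.9% of all genes). The median log2 fold changes of the members were 0.05 and 0.03, and those of all genes 0.01 and −0.01. The comparisons at baseline share their libraries with the bicuculline comparisons above, so their values are given side by side and not related to each other.

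**Figure D4:**
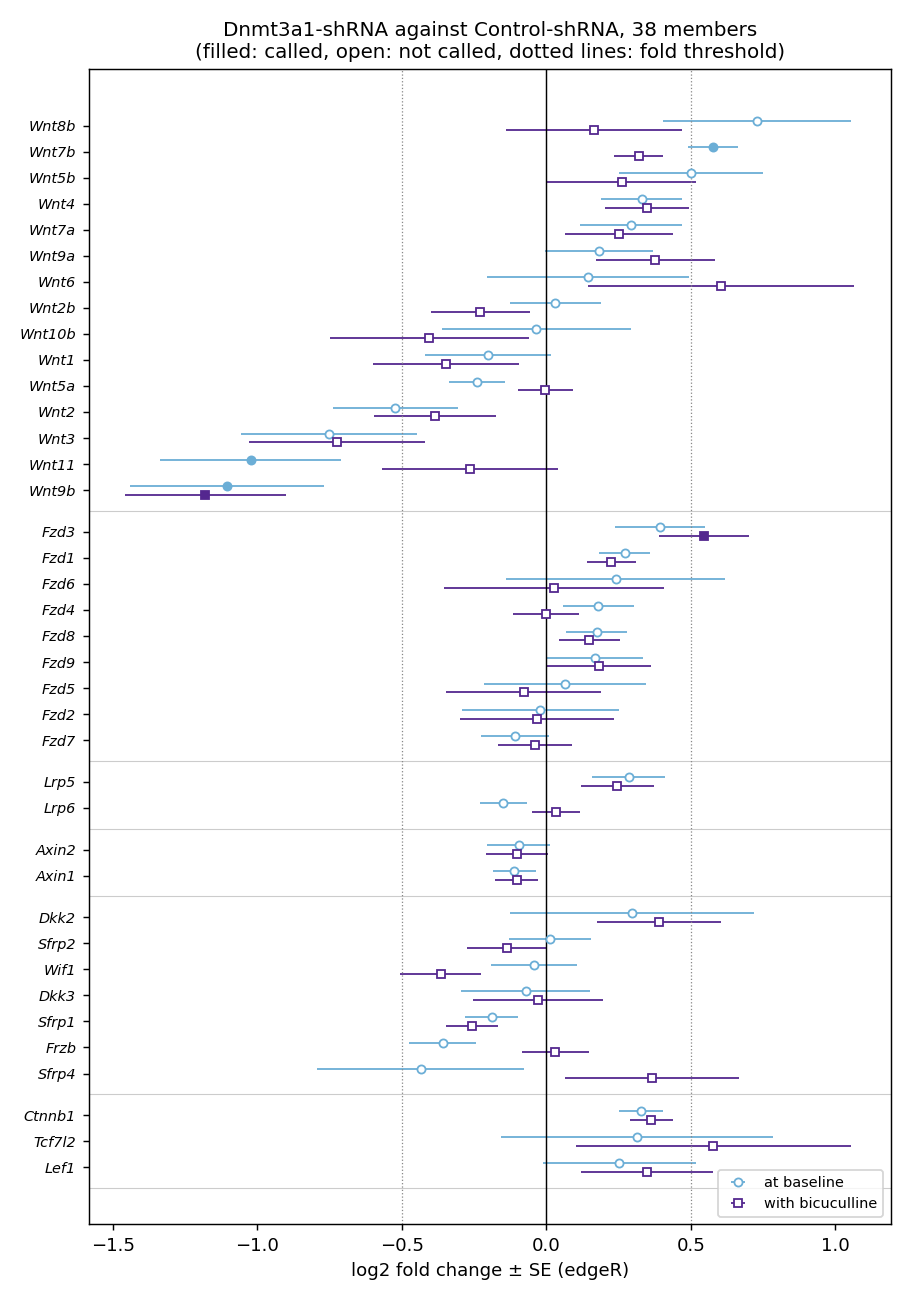
Log2 fold change of each tested member in Dnmt3a1-shRNA against Control-shRNA cultures, with its standard error from edgeR, at baseline (circles) and with bicuculline (squares). Filled symbols were called. Wnt9b is called in both conditions, at −1.11 and −1.18, and most members lie within 0.5 of 0.

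Wnt7b (ENSMUSG00000022382.15, chromosome 15, 85535437 to 85582473, minus strand) had 117, 116, 111 and 102 CPM in Control-shRNA and 185, 165, 149 and 166 CPM in Dnmt3a1-shRNA cultures at baseline. Every knockdown library lay above every control library, and the log2 fold change was 0.58 (SE 0.09, adjusted p = 0.00015), called in all 16 fits without 1 library. With bicuculline the value was 0.32 (SE 0.09, adjusted p = 0.0151) and the groups overlapped, so that it passed the adjusted p and not the fold threshold. The baseline value fell under it under scaling by library size alone (0.49) and on the TPM scale (0.45). The exons of Wnt7b overlap those of an antisense gene, AU022754, and how far the reads of both were told apart was not tested. Exons of Wnt5a, Wnt11, Fzd5, Fzd6, Axin2, Sfrp2, Lef1 and Ctnnb1 also overlap a gene on the opposite strand. The summed TPM of the ligands, to which Wnt7b gave most, was 112 to 131 in Control-shRNA and 149.6 to 152 in Dnmt3a1-shRNA libraries at baseline, while with bicuculline it was 76.0 to 105 and 96.2 to 117.

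Wnt9b, with values per library given above, had −1.11 (SE 0.33, adjusted p = 0.0303) at baseline and −1.18 (SE 0.28, adjusted p = 0.00643) with bicuculline. Each knockdown library lay below each control library in both conditions. At baseline this rested on 15, 11, 15 and 16 counts in Control-shRNA and 3, 8, 7 and 7 counts in Dnmt3a1-shRNA cultures. On log2(TPM + 1) and log2(TPM + 0.1) the baseline value was −0.16 and −0.73 and not a call, and on log2(TPM + 1) the value with bicuculline was −0.29 and not a call. In edgeR the baseline call was lost in 6 of the 16 fits without 1 library, those without replicate 1, 3 or 4 of either baseline group, with −0.90 as the smallest decrease, whereas the call with bicuculline held in all 16. Wnt3, its neighbour, had 0.527, 0.587, 0.487 and 0.486 CPM in Control-shRNA and 0.316, 0.294, 0.286 and 0.337 CPM in Dnmt3a1-shRNA cultures at baseline. These groups did not overlap, yet the log2 fold change of −0.75 (SE 0.31, adjusted p = 0.107) was not a call at 9 to 19 counts per library, and with bicuculline it was −0.73 (SE 0.30, adjusted p = 0.11), a call without replicate 3 of the Dnmt3a1-shRNA bicuculline group (−1.01).

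Wnt11, a noncanonical ligand, had 0.954, 0.71, 0.304 and 0.973 CPM in Control-shRNA and 0.387, 0.36, 0.286 and 0.404 CPM in Dnmt3a1-shRNA cultures at baseline. Replicate 3 of the control group lay within the knockdown range, and the log2 fold change was −1.02 (SE 0.31, adjusted p = 0.032). The call was lost in 7 of the 16 fits, without replicate 1, 2 or 4 of the Control-shRNA baseline or without any 1 of the 4 Dnmt3a1-shRNA baseline libraries, with −0.86 as the smallest decrease, and voom with limma did not make it (adjusted p = 0.0887, with 0.00252 to 0.107 over all alternatives). With bicuculline the value was −0.27 (SE 0.30, adjusted p = 0.601). Wnt8b had 0.296, 0.772, 0.882 and 0.486 CPM in Control-shRNA and 0.843, 1.11, 1.302 and 0.808 CPM in Dnmt3a1-shRNA cultures, overlapping ranges, with 0.73 (SE 0.33, adjusted p = 0.146) at baseline. It was called when the replicate number was taken as a block (0.75, adjusted p = 0.0243, same edgeR test, with 0.0243 to 0.345 over all alternatives). Wnt4 had 0.33 (SE 0.14, adjusted p = 0.125) and 0.35 (SE 0.15, adjusted p = 0.109), neither of which was a call.

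Fzd3 (ENSMUSG00000007989.7, chromosome 14, 65192449 to 65262463, minus strand) had 182, 144, 153 and 145 CPM in Control-shRNA and 297, 189, 219 and 207 CPM in Dnmt3a1-shRNA cultures with bicuculline. All knockdown libraries were higher, with replicate 1 the highest in both groups, and the log2 fold change was 0.54 (SE 0.16, adjusted p = 0.0234). The call was lost without replicate 2, 3 or 4 of the Control-shRNA bicuculline group or replicate 1 of the Dnmt3a1-shRNA bicuculline group (lowest value 0.39). It was lost as well under scaling by library size alone (0.47) and on both TPM scales (0.41 and 0.42). At baseline Fzd3 had 144, 106, 135 and 139 CPM and 204, 123, 172 and 188 CPM, overlapping ranges, and 0.39 (SE 0.16, adjusted p = 0.103), a call without replicate 2 of the Dnmt3a1-shRNA baseline (0.52). Fzd1 had 0.27 (SE 0.09, adjusted p = 0.0408) and Frzb −0.36 (SE 0.12, adjusted p = 0.0434) at baseline, both past the adjusted p and under the fold threshold.

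Ctnnb1 was higher after knockdown by a small margin. It had 563, 498, 482 and 516 CPM in Control-shRNA and 728, 599, 610.1 and 644 CPM in Dnmt3a1-shRNA cultures at baseline, and 566, 532, 524 and 566 CPM and 784, 648, 649 and 735 CPM with bicuculline. No knockdown library overlapped a control library in either condition. The log2 fold changes were 0.33 (SE 0.08, adjusted p = 0.00602) and 0.36 (SE 0.08, adjusted p = 0.00273), past the adjusted p and under the fold threshold in both. Dkk2, Fzd4, Fzd7 and Lef1, whose promoters are shown above, had log2 fold changes after knockdown with bicuculline of 0.39, 0.00, −0.04 and 0.35, and none passed the test.

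Among the other pathway genes 4 of 49 were called at baseline (8.16%, against 5.77% of all genes), 2 higher and 2 lower, and 5 with bicuculline (10.2%, against 5.84% of all genes), 2 higher and 3 lower, with medians of 0.13 and 0.11. Rspo1 had 2.403, 2.13, 2.01 and 1.82 CPM in Control-shRNA and 0.879, 0.948, 1.05 and 1.18 CPM in Dnmt3a1-shRNA cultures at baseline, and its log2 fold changes were −1.04 (SE 0.18, adjusted p = 0.000497) and −1.20 (SE 0.18, adjusted p = 0.000193). Nkd2 had −1.16 (SE 0.14, adjusted p = 1.41e-05) and −0.90 (SE 0.14, adjusted p = 0.000275). All knockdown libraries of both genes were under all control libraries in both conditions. Rspo2 (0.51) and Sostdc1 (1.001), a secreted antagonist, were called higher at baseline. With bicuculline Lgr5 (0.95) and Daam1 (0.58), an effector of the polarity branch, were called higher and Rspo3 (−0.90) lower. Among the β-catenin targets 0 of 10 were called at baseline by edgeR and 1 with bicuculline (Lgr5), beside 1.97% of all genes called higher there. At baseline 4 had an unadjusted p under 0.05 by that test. How many of all genes did was not counted, so this number cannot be set against a background.

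Whether the response to bicuculline itself depended on the hairpin was tested by the interaction. By edgeR 0 of the 17222 genes (0%) had an adjusted p under 0.05 and so 0 members were called. Of the 38 members 2, Wnt7b and Frzb, had an unadjusted p under 0.05 by that test, a number not counted over all genes. DESeq2 and voom with limma also called 0 members, and DESeq2 called 17 of all genes. The median interaction was 0.00 over the members and −0.02 over all genes. The estimate was −0.26 (SE 0.12, adjusted p = 1) for Wnt7b, 0.39 (SE 0.17, adjusted p = 0.975) for Frzb and 0.80 (SE 0.47, adjusted p = 1) for Sfrp4, as log2 values. Sfrp2, Wnt6 and Wnt8b, called with bicuculline in Control-shRNA cultures alone, were therefore not shown to respond differently in Dnmt3a1-shRNA cultures.

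The labels number the replicates 1 to 4 in each group, and several members followed this number across groups. In 6 of the 38 members the same number was highest in all 4 groups, a larger share than the 8.56% of all tested genes. In 6 members the same number was lowest, also a larger share than the 8.95% of all genes. Replicate 1 was the highest for Wnt5a, Fzd3 and Ctnnb1, replicate 2 for Tcf7l2, and replicate 3 for Fzd5 and Sfrp2. Tcf7l2 had 1.15, 4.14, 1.89 and 0.778 CPM in the Control-shRNA baseline, 1.23, 3.16, 1.96 and 1.403 in the Control-shRNA bicuculline, 1.37, 3.96, 2.83 and 1.75 in the Dnmt3a1-shRNA baseline and 2.38, 3.96, 3.53 and 1.699 CPM in the Dnmt3a1-shRNA bicuculline group. Replicate 2 stood highest throughout, and the ranges of all 4 groups overlapped. Fzd6, Fzd9 and Dkk3 were lowest in replicate 1 of every group, Fzd3 in replicate 2, Fzd8 in replicate 3 and Frzb in replicate 4. Ttr, a marker of the choroid plexus that is no member, had 11.2 to 34.8 CPM in replicates 1 and 4 of all groups and 0.172 to 0.639 CPM in replicates 2 and 3. Its whole list, choroid plexus and ependyma with 6 markers, summed to 34.6 to 46.2 TPM in replicate 1 and 48.6 to 82.6 in replicate 4. That list summed to 19.5 to 25.5 TPM in replicate 2 and 18.3 to 21.4 in replicate 3. Of these sums Ttr itself gave 18.1 to 58.8 TPM in replicates 1 and 4 and 0.327 to 1.16 in replicates 2 and 3. The pattern is therefore given for Ttr alone and not for its list. Markers of the oligodendrocyte lineage summed to 81.2 to 119 TPM in replicates 1 and 4 and to 151 to 188 TPM in replicates 2 and 3. The part of these differences between cultures in the values of the members was not tested.

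**Figure D5:**
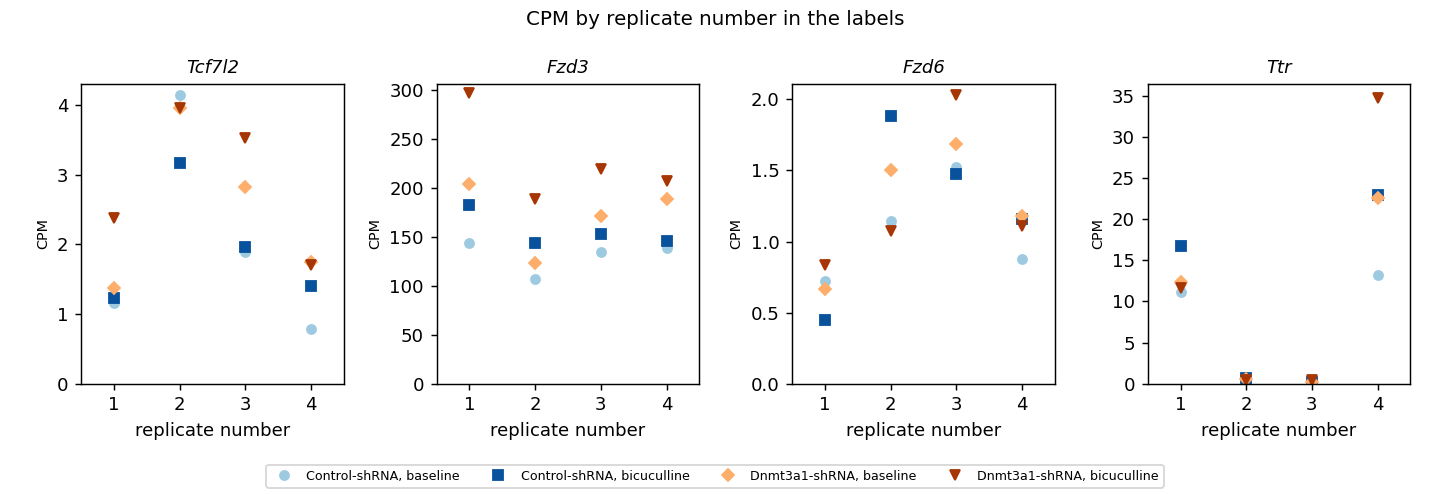
CPM of Tcf7l2, Fzd3, Fzd6 and, for comparison, the choroid plexus marker Ttr by replicate number, with 1 symbol for each of the 4 groups. Tcf7l2 is highest in replicate 2 of each group, Fzd3 in replicate 1, Fzd6 is lowest in replicate 1, and Ttr is near 0 in replicates 2 and 3.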

How the data were processed

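RNA was sequenced from 16 libraries, 4 in each of 4 groups taken from the labels. Per the labels and the submitters' processing notes, the authors trimmed reads with Trim Galore (0.6.4), quantified them with kallisto (given as 0.4.6) against the mouse transcriptome (GRCm38.p6) and summed transcripts to genes. The deposited tables hold an estimated count and a TPM value per gene. Kallisto shares reads that fit several transcripts among them, so levels of paralogs and of overlapping genes are estimates.

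The deposited estimated counts were rounded to integers before fitting, and 17222 genes passed filterByExpr. All 16 libraries were fitted in 1 model with edgeR (4.0.16, R 4.3.3) by robust quasi-likelihood after TMM scaling (factors 0.871 to 1.12), with Benjamini-Hochberg adjustment over all tested genes. Calls needed an adjusted p under 0.05 together with a log2 fold change beyond 0.5 in either direction, and for the interaction the adjusted p alone. The tests were checked on simulated counts, with changes placed only in genes with many reads and no effect of the replicate number. That check does not cover calls that rest on few reads. The members, the lists and the alternatives were chosen with earlier results of these data known. All members are described, other pathway genes by name at most 5 per comparison and direction, with Apc2 named in addition. Alternatives were limma (3.58.1) with voom or on log2(TPM + 1) and log2(TPM + 0.1), DESeq2 (1.42.0), other scalings, filters and fold thresholds, a replicate block, and leaving out each library. Deviations of same-numbered libraries correlated at 0.124 to 0.192 between the Control-shRNA groups and at 0.184 to 0.33 between the baseline groups, so the number was taken to pair these, although replicate 4 correlated as much or more with another number (0.215 and 0.188). Values are from the fit without the block, and the blocked value is given where it changes a call. In the other comparisons at least 1 pair lay under 0.1.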

Additional observations from a re-analysis of the deposited data

Results flagged for a closer look

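In each group of 4 libraries and each of the 38 tested members, the gap between the highest or lowest library and its nearest neighbour was set against the range of the group, against Dixon's 95% critical value. Of the 152 groups checked 10 stood past it, and chance gives about 1 in 20.

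Among the ligands, Wnt2b had 2.35 CPM in replicate 3 of the Dnmt3a1-shRNA baseline, where the other 3 libraries had 3.47 to 3.51. Wnt4 had 8.67 CPM in replicate 1 of the Control-shRNA bicuculline group, with 11.3 to 11.6 in the others. In the same library Wnt6 had 0.112 CPM, with 0.137 to 0.142 in the others, a difference of 1 count. Wnt10b, a ligand called in no comparison, had 1.31 CPM in replicate 3 of the Control-shRNA baseline and 0.428 to 0.551 in the others.

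Among the receptors, Fzd1 had 26.3 CPM in replicate 2 of the Dnmt3a1-shRNA baseline, above 22.3 to 22.9 in the others. The coreceptor Lrp5 had 10.9 CPM in replicate 3 of the Dnmt3a1-shRNA bicuculline group, above 8.63 to 8.77. Among the inhibitors, Dkk2 had 0.445 CPM in replicate 3 of the Dnmt3a1-shRNA baseline, above 0.294 to 0.316. Sfrp2 had 3.72 CPM in replicate 1 of the Control-shRNA baseline, below 4.09 to 4.14. Frzb had 11.9 CPM in replicate 1 of the Dnmt3a1-shRNA bicuculline group, above 8.83 to 9.27, and Sfrp4 had 1.65 CPM in replicate 3 of the Control-shRNA bicuculline group, above 0.71 to 0.856. Without that library Sfrp4 was no longer called with bicuculline in Control-shRNA cultures, where its log2 fold change was 0.84 with it and 0.49 without it. The call was also lost without certain other libraries and held in 10 of the 16 fits without 1 library.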

How the results depend on the processing

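The calls with bicuculline were less dependent on the processing than those after knockdown. Of the 17 members called in Control-shRNA cultures, the count was 8 on log2(TPM + 1) and 7 at an absolute log2 fold change over 1, and of the 14 in Dnmt3a1-shRNA cultures it was 6 at that threshold. Of all 17222 genes, 3679 were called on log2(TPM + 1) in Control-shRNA cultures, against 3756 in the main fit. For other fold thresholds the calls over all genes were not counted. Fits without 1 library gave 13 to 18 and 13 to 15 members, beside 3579 to 3781 and 4236 to 4500 of all genes. The 3 members called after knockdown at baseline became 1 with at least 10 counts in every library, 0 on log2(TPM + 1), 1 on log2(TPM + 0.1) and 6 with no fold threshold, and 1 to 3 without 1 library. Calls over all genes were 917 of 14472 with at least 10 counts, and 823 and 987 of 17222 on the TPM scales. They were 825 to 1102 without 1 library and 993 in the main fit. The 2 called with bicuculline became 1 with library sizes only, 1 with at least 10 counts, 0 and 1 on the TPM scales, 4 with no fold threshold and 1 at an absolute log2 fold change over 1, and 1 to 3 without 1 library. Calls over all genes were 1101 of 17222 with library sizes only and 924 of 14472 with at least 10 counts. On the TPM scales they were 787 and 1018 of 17222. Without 1 library they were 856 to 1132, against 1006 in the main fit. For the interaction every fit without 1 library gave 0, and Dnmt3a kept −2.85 to −2.76 at baseline and −2.88 to −2.84 with bicuculline. With the replicate number as a block 18, 15, 4, 3 and 0 members were called in the 5 comparisons, where Fzd5 (0.51) with bicuculline and Tcf7l2 (0.60) after knockdown with bicuculline were added in Dnmt3a1-shRNA cultures. Calls over all 17222 genes rose as well with the block, to 3981, 4605, 1292, 1332 and 20 from 3756, 4424, 993, 1006 and 0.

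Scaling by library size alone shifted the median of all genes to −0.15 in both bicuculline comparisons and to −0.07 and −0.08 after knockdown, and the share of lower calls among all called genes went from 50.8% to 68.9%, from 51.2% to 67.3%, from 69.8% to 85.9% and from 66.3% to 80.9%. Under it the small bicuculline values in Control-shRNA cultures turned to −0.0647 for Wnt5a, −0.0371 for Axin2 and −0.0689 for Ctnnb1, and in Dnmt3a1-shRNA cultures to −0.0358 for Axin2 and −0.0232 for Ctnnb1. On log2(TPM + 1) and log2(TPM + 0.1) Axin2 was −0.0747 and −0.0828 and Ctnnb1 −0.10 and −0.10 in Control-shRNA cultures, and Ctnnb1 −0.0201 on both in Dnmt3a1-shRNA cultures. Dkk3 was 0.00702 with DESeq2 size factors and 0.0049 in DESeq2, and Tcf7l2 was 0.0388 with the replicate block and 0.14 with voom. Without 1 library Dkk3 ranged from −0.10 to 0.18, Frzb from −0.10 to 0.0188 and Tcf7l2 from −0.38 to 0.60. None of these was a call, and the cause was not tested. In Control-shRNA cultures with bicuculline the calls of Wnt1 (−0.39), Wnt2b (−0.45), Wnt6 (−0.30), Wnt8b (0.30) and Fzd1 (0.48) also ended on log2(TPM + 1), as did Wnt1 (−0.39) and Fzd1 (0.45) in Dnmt3a1-shRNA cultures, and those of Wnt1 (−0.69) and Wnt6 (−1.27) in Control-shRNA cultures ended in DESeq2. Genes with few reads, such as Wnt6, Wnt9b and Wnt10a, limit what this depth can show.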
